A study of Mus musculus with 20 samples.

Results

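Clec10a and 9 other marker genes of border macrophages were followed through RNA sequencing of brain microglia: Clec10a, Mrc1, Cd163, Lyve1, Pf4, F13a1, Cbr2, Ms4a7, Siglec1 and Stab1. They were chosen by symbol, and all 10 were found among the 24062 genes of the deposited table and passed the filter on low values. Each sample held the microglia of the whole brain of 1 male mouse, all of the strain B6D2F1/J. At 7 months 6 mThy1-α-synuclein mice, called α-synuclein mice from here on, were set against 4 wild-type mice, and at 10 months 5 were set against 5. The mThy1-α-synuclein mice, labelled HEM, are hemizygous for human wild-type α-synuclein driven by the murine Thy-1 promoter from a transgene on the X chromosome. That promoter works mainly in neurons, so the microglia studied here are not meant to make the transgene themselves. The controls were wild-type mice of the same strain and ages, and the labels name no treatment. Microglia were selected with magnetic beads, against CD11b in the published methods and against IBA1 in the sample labels.

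Border macrophages live at the edges of the brain, in the meninges, in the perivascular spaces and in the choroid plexus, whereas microglia live in the tissue itself. They take up material from blood and cerebrospinal fluid through lectins and scavenger receptors, and the 10 genes are commonly used to tell them from microglia. Both cell types carry CD11b and IBA1, so beads against either protein select both. In RNA of a bulk fraction, fewer border macrophages and less RNA per border macrophage cannot be told apart.

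The values are normalized counts, that is, reads per gene divided by 1 size factor per mouse. In a comparison of genotypes, a gene that fell or rose was lower or higher in α-synuclein than in wild-type mice of the same age. Between 33404096 and 77806399 reads per mouse were counted on genes. The fraction held mainly microglial RNA: 15 homeostatic microglia genes summed to between 2132740 and 2832110 normalized counts per mouse, and the 10 marker genes to between 32305 and 56460. Neutrophil and choroid plexus transcripts varied widely between mice. In α-synuclein mice 1, 2 and 3 and wild-type mouse 4 of 7 months, 9 neutrophil genes summed to at most 79525, against at least 251836 in the other 6 mice of that age. At 10 months the same sum had a median of 155120 in α-synuclein and 302339 in wild-type mice. Choroid plexus epithelium genes summed to 13470, 25899 and 25203 in α-synuclein mice 1, 4 and 5 of 10 months and to at most 5635 in the wild-type mice of that age. Both ages were normalized and processed apart from each other, so age and processing cannot be told apart.

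To compare genes with each other, levels were divided by exon length and averaged over the 20 mice. Mrc1, the mannose receptor, stood highest at 2004 ± 410.2 normalized counts per kb (SD, n = 20), followed by the scavenger receptor Stab1 at 1607 ± 356. F13a1, which encodes the catalytic subunit of coagulation factor XIII, and Pf4, a platelet-type chemokine, had 1137 ± 352 and 993 ± 225 per kb. Far below came the carbonyl reductase gene Cbr2 at 464 ± 134, the hemoglobin scavenger receptor Cd163 at 459 ± 121, the hyaluronan receptor Lyve1 at 347 ± 87.2 and Clec10a at 323 ± 105 per kb. Ms4a7, a membrane protein of the MS4A family, had 159 ± 59.2, and Siglec1, which binds sialic acid, 87.9 per kb with an SD of 19.96. Pf4 and Cbr2 were the one pair of neighbours in this order whose means lay farther apart than the sum of their SDs. The highest gene, Mrc1, had 1.84% of the per-kb level of the microglial receptor P2ry12, and the lowest, Siglec1, had 0.0808%.

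**Figure D1:**
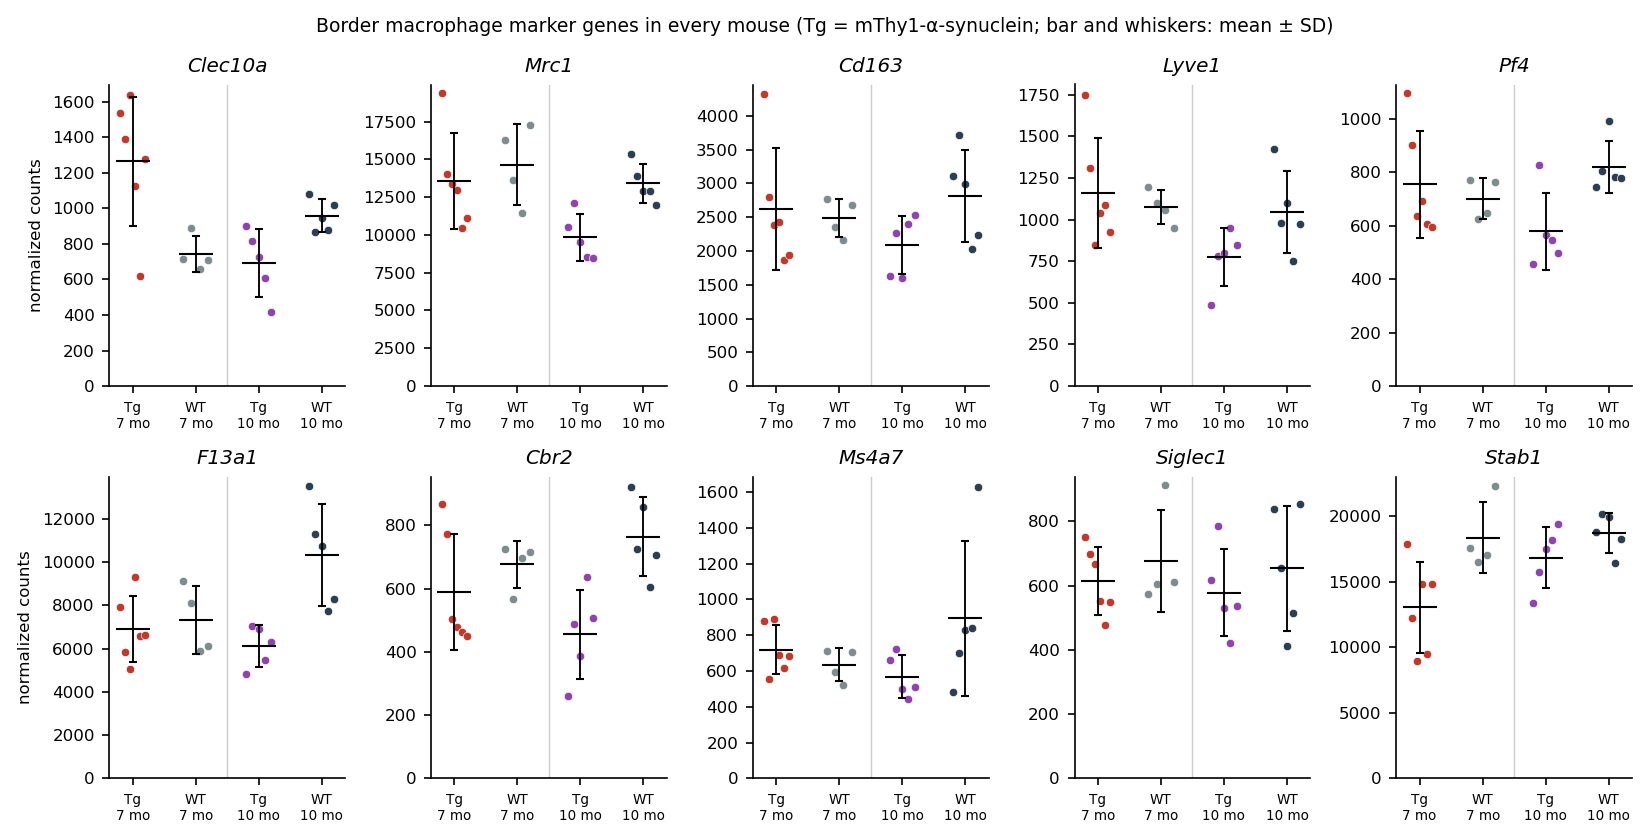
Normalized counts (vertical axes, from 0) of the 10 marker genes in every mouse of the 4 groups (Tg, α-synuclein; WT, wild type), with 1 point per mouse and the mean ± SD as bar and whiskers. Clec10a was above every wild-type mouse in 5 of 6 α-synuclein mice of 7 months, and F13a1 lay between 4837 and 7057 in α-synuclein mice of 10 months and between 7724 and 13522 in wild-type mice.

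Clec10a was higher in most α-synuclein mice of 7 months and lower in most of those of 10 months. In limma the difference between the ages passed the test although neither age did so by itself. DESeq2 on recovered reads called Clec10a at both ages. The gene encodes the galactose-binding C-type lectin of macrophages and lies on the plus strand of chr11:70156197-70170834 (mm10). At 7 months it had 1536, 1391, 1635, 1126, 618 and 1277 normalized counts in α-synuclein mice 1 to 6 and 715, 890.1, 657 and 711 in wild-type mice 1 to 4. All α-synuclein mice but mouse 5 lay above every wild-type mouse, and mouse 5 lay below them all. The mean was 1264 ± 365 against 743 ± 102 (SD, n = 6 and 4), a log2 fold change of 0.71 with a standard error of 0.24 that did not pass limma's test (adjusted p = 0.123). Without α-synuclein mouse 5 the adjusted p was 0.00180 and the log2 fold change 0.90.

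The group means of Clec10a stood in the opposite order at 10 months, at 693 ± 189 against 958 ± 92.8 (SD, n = 5 and 5). It had 898, 816, 727, 609 and 414 normalized counts in the α-synuclein mice and 1081, 864, 948, 878 and 1020.5 in the wild-type mice. Of the α-synuclein mice, 4 lay below every wild-type mouse and mouse 1 lay within their range. The log2 fold change was -0.51 (standard error 0.17, adjusted p = 0.0906), again short of the cutoff in limma.

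The genotype effect on Clec10a at 10 months minus that at 7 months was -1.22 on the log2 scale (standard error 0.32, adjusted p = 0.0273, limma fit of all 20 mice). Clec10a was the 1 of 10 marker genes with a called difference between the ages, where 6.36% of the 14457 genes tested had one. Of the other 9, values below 0 were found in 8, from -0.73 for Ms4a7 to -0.03 for Siglec1, and Stab1 was at 0.37. In all, 4 of 10 had an unadjusted p under 0.05, as did 21.9% of all genes.

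The Clec10a call depended on which mice were kept. It was lost without wild-type mouse 1 or 3 of 7 months (adjusted p = 0.0548 and 0.0582) and without wild-type mouse 1 of 10 months (0.0555), with values between -1.41 and -1.05 when any single mouse was left out. Without the 4 mice of 7 months that were low in neutrophil transcripts, 3 of which were α-synuclein mice with high Clec10a, the difference between ages was -0.87 (adjusted p = 0.173) and the 7-month log2 fold change 0.36 (adjusted p = 0.562). With summed neutrophil or choroid plexus transcripts as a covariate the difference stayed past the cutoff, at -1.36 (adjusted p = 0.00493) and -0.81 (adjusted p = 0.0456). For the 10-month comparison alone, the Clec10a log2 fold change lay between -0.65 and -0.22 over all alternatives. The choroid plexus covariate gave the highest adjusted p there, 0.549 in limma, whereas at 7 months Clec10a was called with that covariate.

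Part of the Clec10a transcript is shared with its paralog Mgl2, another galactose-binding lectin of macrophages and dendritic cells, which ends 18647 bases upstream on the same strand (chr11:70130329-70137550). Their coding sequences are 90.58% identical over 924 aligned bases, and 2.637% of the 100-base windows of Clec10a transcripts also occur in Mgl2. The longest run without a difference is 183 bases long and starts at base 502 of the Clec10a coding sequence. It is shown because a read lying inside it matches both genes, and how such reads were counted is not stated.

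Clec10a and Mgl2 shared run: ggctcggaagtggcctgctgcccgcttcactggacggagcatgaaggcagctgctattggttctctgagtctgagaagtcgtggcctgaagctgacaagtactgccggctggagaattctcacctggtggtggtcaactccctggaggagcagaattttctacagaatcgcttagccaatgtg

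Mgl2 had the lower mean in α-synuclein mice at both ages. At 7 months it had 1370.0, 697, 691, 1750.0, 1558 and 805 normalized counts in α-synuclein mice and 2131, 1298, 1913 and 2124 in wild-type mice. The α-synuclein mice with the most Mgl2, mice 4 and 5, had the least Clec10a. The log2 fold change of Mgl2 was -0.78 (standard error 0.32, adjusted p = 0.206).

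In the 10-month mice Mgl2 had 836, 1434, 593, 778 and 994 normalized counts in the α-synuclein group and 2143, 2012, 1703, 1481 and 1262 in the wild-type group. It fell by 0.93 on the log2 scale (standard error 0.22, adjusted p = 0.0341), with only α-synuclein mouse 2 inside the wild-type range. Its difference between the ages was -0.14 (standard error 0.41, adjusted p = 0.877).

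The sum of both lectin genes at 7 months was 2409 ± 383 in α-synuclein and 2609.6 ± 309 in wild-type mice, a gap smaller than either SD. Clec10a over Mgl2 was 1.35 at the median of the α-synuclein mice, with a range from 0.397 to 2.37, and 0.339 in wild-type mice, with a range from 0.335 to 0.686. At 10 months the sum was 1620.0 ± 387 against 2679 ± 386, and the ratio had medians of 0.782 and 0.557. The sums of the genotypes did not overlap at 10 months, with 2251 as the highest in α-synuclein mice and 2282 as the lowest in wild-type mice. Of single genes tested, 7.27% did not overlap at that age. Over the 20 mice, with group means removed, Clec10a and Mgl2 correlated at r = -0.38. These values describe the pair and were not tested.

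**Figure D2:**
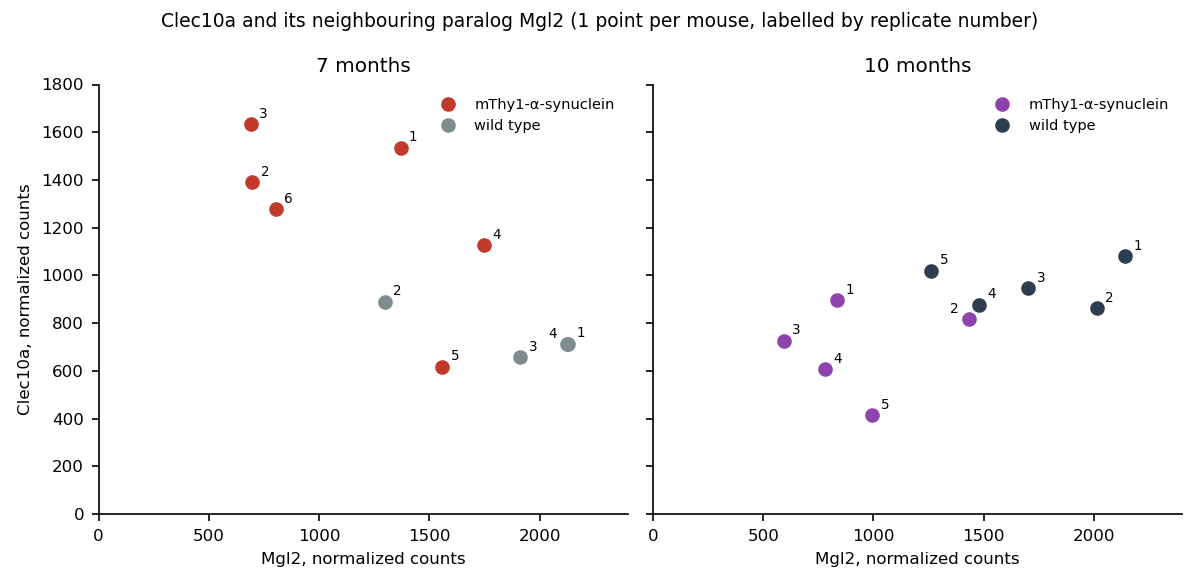
Clec10a (vertical axis) against Mgl2 (horizontal axis) in normalized counts, 1 point per mouse with its replicate number, at 7 months (left) and 10 months (right). At 7 months α-synuclein mice 2, 3 and 6 combine at least 1277 counts of Clec10a with at most 805 of Mgl2, a region that holds no wild-type mouse.

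Around Clec10a, 53 genes within 500000 bases on either side were tested. At 7 months 0 of them were called by limma, at 10 months 1, which was Mgl2, and 0 for the difference between the ages. Of all genes tested, 4.93%, 7.67% and 6.36% were called in these comparisons.

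At 10 months, 4 of the 10 marker genes (Mrc1, Pf4, F13a1 and Cbr2) were lower in α-synuclein mice and none was higher, where 7.67% of the 13627 genes tested were called in either direction and 3.79% were lower. All 10 log2 fold changes were below 0, with a median of -0.48, while the median over all genes tested was -0.0026. At 7 months 0 of the 10 were called by limma (background 4.93% of 13887 genes). In that comparison 2 of 10 had an unadjusted p under 0.05, Clec10a and Stab1, as did 21.3% of all genes. At 7 months DESeq2 called 1 of 10, where it called 8.34% of all genes, and edgeR called 0 of 10 and 695 of all genes.

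Among the lectins and scavenger receptors, Mrc1 was called lower at 10 months. It lies on chr2:14229392-14332057 and its product takes up mannose-bearing glycoproteins. At 10 months it had 10539, 12137, 9534, 8520.2 and 8466 normalized counts in α-synuclein mice and 15333, 13911, 12915, 12878 and 11978 in wild-type mice, where only α-synuclein mouse 2 reached the wild-type range. Mrc1 fell by 0.45 on the log2 scale, or by 27.0% (standard error 0.10, adjusted p = 0.0151), and remained called whichever mouse was left out (adjusted p at most 0.0437). At 7 months its mean was 13559 ± 3166 against 14650.4 ± 2656 and its log2 fold change -0.12 (adjusted p = 0.719). The difference between the ages was -0.33 (adjusted p = 0.364).

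Cd163 and Lyve1 had similar sizes of difference at 10 months with a wider spread. Cd163 (chr6:124304656-124330527), the receptor that clears hemoglobin bound to haptoglobin, had 1636, 2266, 1606, 2401 and 2527 normalized counts in α-synuclein mice and 3105, 3709, 2988, 2032 and 2236 in wild-type mice. The ranges overlapped, and the log2 fold change was -0.42 (standard error 0.19, adjusted p = 0.199). Lyve1 (minus strand, chr7:110850607-110863239), which marks a subset of perivascular and meningeal macrophages, had 486, 784, 802, 951 and 847 against 1425, 978, 1097, 749 and 975. Its log2 fold change was -0.44 (standard error 0.19, adjusted p = 0.191), with the lowest value in α-synuclein mouse 1 and the highest in wild-type mouse 1. At 7 months the log2 fold changes were 0.02 for Cd163 and 0.07 for Lyve1.

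Stab1 (minus strand, chr14:31139013-31168641) encodes stabilin-1, an endocytic scavenger receptor, and was, beside Clec10a, the 1 marker gene whose larger difference lay at 7 months. Its values there ran from 8949.8 over a median of 13524 to 17917 in the 6 α-synuclein mice and were 17598, 16521, 17049.5 and 22353 in wild-type mice. Of the α-synuclein mice 5 lay below every wild-type mouse and mouse 1 lay among them. The log2 fold change was -0.53 (standard error 0.20, adjusted p = 0.156) at 7 months and -0.16 (standard error 0.09, adjusted p = 0.331) at 10 months, where the means were 16847 ± 2335 and 18727 ± 1517. Stab1 overlaps Nt5dc2 on the other strand, and whether reads were counted by strand is not stated.

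Siglec1 (minus strand, chr2:131069220-131086765), the sialic acid-binding sialoadhesin, showed the smallest difference at 10 months, with 617, 785, 529.7, 422 and 538 normalized counts in α-synuclein mice and 838, 654, 411, 516 and 854 in wild-type mice. The groups covered nearly the same range, and the log2 fold change was -0.15 (standard error 0.21, adjusted p = 0.717). At 7 months it was -0.13 (adjusted p = 0.670), with wild-type mouse 3, at 914, above all 9 other mice of that age.

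Both secreted products among the marker genes were lower at 10 months. F13a1 (minus strand, chr13:36867178-37050244) encodes the transglutaminase that crosslinks fibrin and is made by monocytes as well as by macrophages. It had 4837, 7057, 6925, 5457 and 6320.5 normalized counts in α-synuclein mice and 13522, 11320.4, 10728, 7724 and 8290.4 in wild-type mice. F13a1 was the 1 marker gene whose genotypes did not overlap at 10 months, as 7.27% of all genes tested did not. In α-synuclein mice it was 0.74 lower on the log2 scale than in wild-type mice of that age, or 40.0% lower (standard error 0.16, adjusted p = 0.0195). Without wild-type mouse 2 the adjusted p was 0.0505. At 7 months F13a1 had 6897 ± 1522 against 7313 ± 1565 (log2 fold change -0.09), and the difference between the ages was -0.65 (adjusted p = 0.142).

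Pf4 (chr5:90772435-90773383) encodes platelet factor 4, a chemokine that binds heparin. At 10 months it had 458, 826, 566, 547 and 499.7 normalized counts in α-synuclein mice and 744, 805, 990.5, 784 and 779.9 in wild-type mice. Only α-synuclein mouse 2 lay inside the wild-type range. Pf4 fell by 0.53 on the log2 scale, or by 30.5% (standard error 0.14, adjusted p = 0.0373). This call was lost with each of 8 of the 10 mice left out in turn, all except α-synuclein mouse 2 and wild-type mouse 4, with adjusted p up to 0.0861. At 7 months the log2 fold change was 0.07, and the difference between the ages was -0.60 (adjusted p = 0.118).

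Cbr2 showed the largest of the 10 differences at 10 months. The gene, on the minus strand of chr11:120729489-120732114, encodes an enzyme that reduces carbonyl groups. It had 259.8, 487, 385, 637 and 506 normalized counts in α-synuclein mice and 920.2, 726, 857, 606 and 707 in wild-type mice, with α-synuclein mouse 4 inside the wild-type range. Cbr2 fell by 0.79 on the log2 scale, or by 42.2% (standard error 0.21, adjusted p = 0.0375). Without α-synuclein mouse 2, 3 or 5 or wild-type mouse 1, 2, 3 or 5 the adjusted p lay between 0.0559 and 0.0862. At 7 months mice 1 and 2 of the α-synuclein group, with 866 and 773, lay above every wild-type mouse and the other 4 lay below them all (log2 fold change -0.25, adjusted p = 0.479). In addition, 5.367% of the 100-base windows of Cbr2 also occur in Gm11771, and how reads in them were counted is not stated.

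For Ms4a7 (minus strand, chr19:11321039-11336146) 1 mouse stood far above its group at 10 months. Ms4a7 had 663, 724, 501, 445 and 511 normalized counts in α-synuclein mice and 479.7, 699, 827, 840.0 and 1626 in wild-type mice. Wild-type mouse 5 held more than any other mouse, and wild-type mouse 1 lay among the α-synuclein mice. The log2 fold change was -0.56 (standard error 0.28, adjusted p = 0.266) at 10 months, or -0.31 without wild-type mouse 5, and 0.17 (adjusted p = 0.535) at 7 months.

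**Figure D3:**
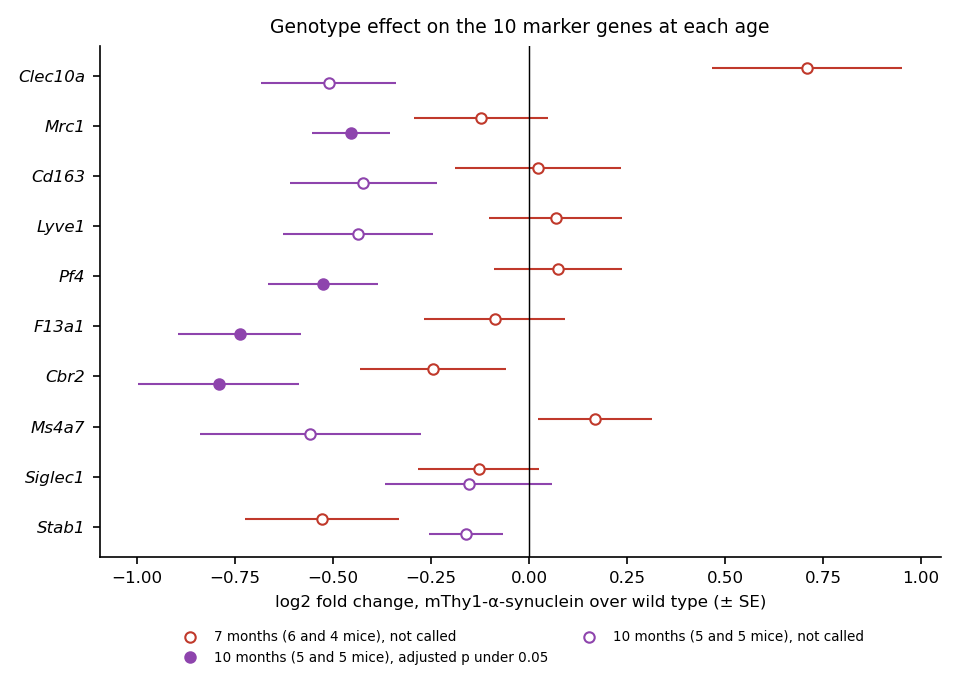
Log2 fold change of α-synuclein over wild-type mice (horizontal axis, ± standard error) for the 10 marker genes at 7 months (red) and 10 months (purple), with filled points for an adjusted p under 0.05. All 10 purple points lie below 0, from -0.79 (Cbr2) to -0.15 (Siglec1), with Mrc1, Pf4, F13a1 and Cbr2 filled, while the red points lie on both sides of 0 and none is filled.

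Summed over the 10 genes, the α-synuclein mice of 10 months had 33795, 41621, 39067, 38211 and 40007 normalized counts and the wild-type mice 56250.0, 53874, 51687, 43412 and 46761. Every α-synuclein mouse lay below every wild-type mouse, where 7.27% of single genes did not overlap between the genotypes. Stab1, Mrc1 and F13a1 hold most of this sum. The sum of the 23 other border macrophage genes described below did overlap. It ran from 47468 to 57911 in α-synuclein and from 54132 to 66776 in wild-type mice of 10 months.

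Beside the marker genes, all 12 monocyte and all 9 neutrophil genes tested had log2 fold changes below 0 at 10 months. Of the 12 monocyte genes 6 were lower in α-synuclein mice and none higher, where 3.79% of all genes tested were lower. The median log2 fold change of the monocyte list was -1.07. The sum of the list ran from 19614 to 32694 in α-synuclein and from 33225 to 67087 in wild-type mice. Its called genes included Fn1, which encodes fibronectin and is also made by macrophages (log2 fold change -0.48, adjusted p = 0.0222), and Hp, which encodes haptoglobin (-1.44, adjusted p = 0.0301). Chil3, the most abundant of the list, fell by 1.39. The 9 neutrophil genes had a median of -1.08, with Retnlg and Cxcr2 called lower against the same 3.79% of all genes. Their sum ran from 74832 to 202110 in α-synuclein and from 161368 to 400936 in wild-type mice.

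From mouse to mouse the marker genes ran mostly against the neutrophil transcripts. With group means removed, over 20 mice that share processing within an age, 9 of the 10 correlated negatively with the neutrophil sum, from r = -0.55 for Clec10a to -0.04 for Stab1. F13a1 correlated positively, at 0.40 with the neutrophil and 0.52 with the monocyte sum. Clec10a had its strongest correlation with the choroid plexus sum (r = -0.75).

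With the summed neutrophil transcripts as a covariate at 10 months, 0 of the 10 marker genes were called, and 40 of all genes tested in place of 1045. The log2 fold changes of the 4 called genes were then -0.53 for Mrc1, -0.65 for Pf4, -0.61 for F13a1 and -0.95 for Cbr2, with adjusted p between 0.148 and 0.306. With choroid plexus transcripts as the covariate 0 of the 10 were called, and 188 of all genes. Values were then -0.24 for Mrc1, -0.31 for Pf4, -0.55 for F13a1 and -0.85 for Cbr2, with adjusted p between 0.139 and 0.311. The part of these other cells in the result was not tested beyond these fits.

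**Figure D4:**
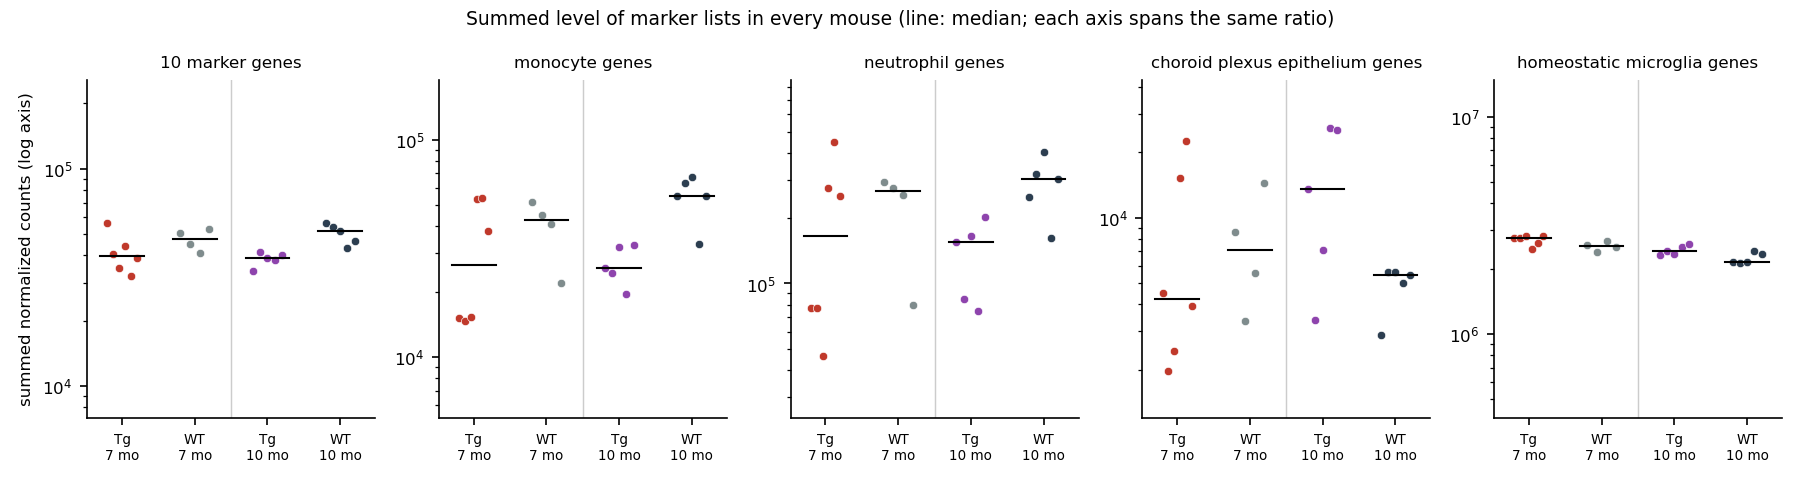
Summed normalized counts (vertical log axes that each span the same ratio) of the 10 marker genes and of monocyte, neutrophil, choroid plexus epithelium and homeostatic microglia genes in every mouse, with the median of each group as a line. At 10 months the sum of the 10 marker genes lies between 33795 and 41621 in α-synuclein mice (Tg) and between 43412 and 56250.0 in wild-type mice (WT), and monocyte genes separate the same mice. Of single genes tested, 7.27% did not overlap between the genotypes at that age.

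Of 15 homeostatic microglia genes, 4 were higher in α-synuclein mice of 10 months and none lower, where 7.67% of all genes were called in either direction: Siglech, a lectin of microglia (log2 fold change 0.31, adjusted p = 0.0398), Itgam, which encodes CD11b (0.22, adjusted p = 0.0408), Sall1, a transcription factor of microglia (0.30, adjusted p = 0.0266), and Cx3cr1, the fractalkine receptor (0.21, adjusted p = 0.0473). The other 11 were not called. Over all 15 the median was 0.12, with 3 below 0. Of the MHC class II genes, which many border macrophages carry, 0 of 8 were called by limma at 10 months, although all 8 were below 0 with a median of -0.65 and 6 had an unadjusted p under 0.05, as did 23.5% of all genes. Of 12 dendritic cell genes 1 was lower, where 3.79% of all genes were: Cd209a (-0.85, standard error 0.10, adjusted p = 0.000602), a lectin of dendritic cells. Lymphocyte genes were low, and 1 of 5 tested, the cytotoxic granule gene Nkg7, was called lower, against the same 3.79% of all genes. It fell by 1.71 (adjusted p = 0.00862).

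Vessel, meningeal and handling markers were looked at in the same way. Of 8 endothelial genes 1 was lower at 10 months, the glucose transporter gene Slc2a1 (-0.41, adjusted p = 0.0491), where 7.67% of all genes were called in either direction. At 7 months 2 of 8 were lower, Cldn5 of the tight junction (-1.29, adjusted p = 0.0125) and Pecam1 (-0.55, adjusted p = 0.0238), where 4.93% of all genes were called. At that age 5 of the 8 had an unadjusted p under 0.05, as did 21.3% of all genes. No leptomeningeal fibroblast gene, mural cell gene or mast cell gene was called by limma at either age. At 10 months 0 of 7, 2 of 7 and 1 of 2 tested had an unadjusted p under 0.05, as did 23.5% of all genes. The 4 hemoglobin genes of the red cell list were at 0 in every mouse. Of 10 immediate-early and dissociation genes, Fosb was lower at 10 months (-0.67, adjusted p = 0.0474), 8 were below 0 with a median of -0.26, and 6 had an unadjusted p under 0.05, as did 23.5% of all genes. At 7 months 0 of them were called by limma and 2 had such a p. The 8 choroid plexus epithelium genes, led by the transthyretin gene Ttr, had a median log2 fold change of 1.42 at 10 months, with 0 called and 7 at an unadjusted p under 0.05.

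Other genes of border macrophages were taken from a list of 24, of which 23 were measured and tested. At 10 months 7 of these 23 were called lower in α-synuclein mice and none higher, where 3.79% of all genes were lower, and 16 were not called. The median log2 fold change was -0.39, with 19 values below 0 and 4 above. Folr2, the folate receptor of tissue macrophages, fell by 0.98 (standard error 0.27, adjusted p = 0.0484), from a mean of 591 ± 168 in wild-type to 308 ± 115 in α-synuclein mice. The lectin genes Cd209f and Clec4n fell by 0.92 and 0.87 (adjusted p = 0.0135 and 0.0225), beside Mgl2. Tgfbi, which encodes a matrix protein and is also made by monocytes, fell by 0.69 (adjusted p = 0.0169), Ms4a6c by 0.55 (adjusted p = 0.0225) and Dab2, an adaptor of endocytosis, by 0.39 (adjusted p = 0.00898). Dab2, Cd209f, Clec4n and Tgfbi did not overlap between the genotypes, as 7.27% of all genes did not.

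At 7 months 2 of the 23 were called (background 4.93%), 1 in each direction, and the median was -0.10. Cp, which encodes the copper-carrying ferroxidase ceruloplasmin, rose by 0.76 (standard error 0.15, adjusted p = 0.0149), and at 10 months its log2 fold change was -0.28 (adjusted p = 0.0678). Its difference between the ages was -1.04 (adjusted p = 0.00240), the 1 called among the 23, where 6.36% of all genes were called. The sign was negative, as for 18 of the 23 and for Clec10a. Blvrb, a biliverdin reductase of heme breakdown, fell by 0.41 (adjusted p = 0.0343). Cp overlaps Hps3 on the other strand.

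**Figure D5:**
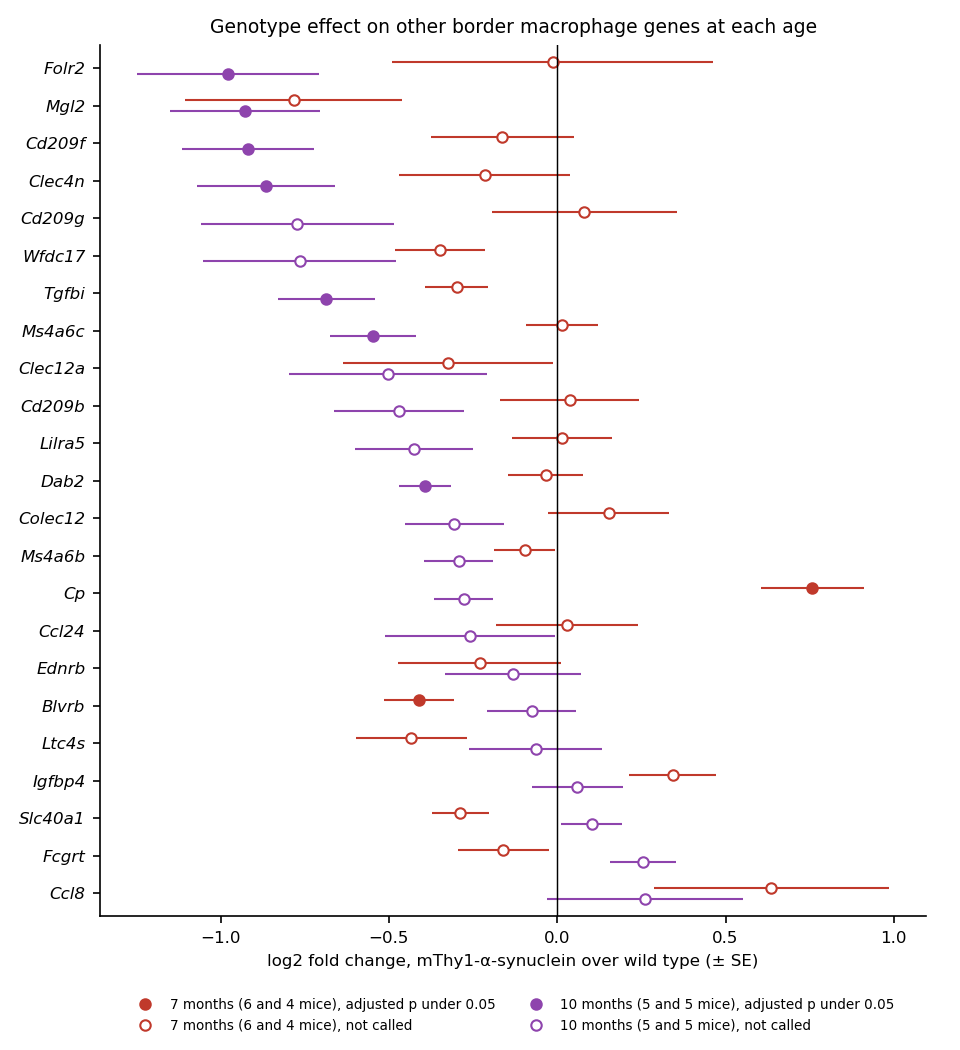
Log2 fold change of α-synuclein over wild-type mice (horizontal axis, ± standard error) for 23 other border macrophage genes, ordered by the 10-month value, at 7 months (red) and 10 months (purple), with filled points for an adjusted p under 0.05. The 7 filled purple points, from -0.98 (Folr2) to -0.39 (Dab2), all lie below 0, and Cp (0.76) and Blvrb (-0.41) are the filled red points.

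Between the ages no marker gene passed the test in either genotype. These values were put on 1 scale over all 20 mice. In wild-type mice 0 of 10 were called by limma or edgeR (1 with an unadjusted p under 0.05), where 9.97% of 14452 genes were called and 25.1% had such a p. The largest wild-type values were a log2 fold change of 0.59 for F13a1 (standard error 0.19, adjusted p = 0.0555) and 0.49 and 0.47 for Ms4a7 and Clec10a (adjusted p = 0.226 and 0.222). In α-synuclein mice 0 of 10 were called by limma or edgeR, with a background of 0.906%, and 4 had an unadjusted p under 0.05, where 12.7% of all genes did. Clec10a was at -0.74 (standard error 0.21, adjusted p = 0.116) and Stab1 at 0.51 (standard error 0.15, adjusted p = 0.126). On the values as deposited, with each age normalized by itself, Clec10a was called lower at 10 months in α-synuclein mice. There 830 of 14457 genes were called, 682 of them lower, against 131 called on the 1 scale. The median log2 fold change over all genes was -0.10 on the deposited values, against 0.0046 on the 1 scale.

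Within groups the marker genes varied together from mouse to mouse in part. Over the 45 pairs the correlation of deviations from the group means (20 mice) had a median of 0.31 and a range from -0.33 to 0.86, with 13 pairs above 0.5 and 11 below 0. Lyve1 with Cbr2 (0.86), Cd163 with Cbr2 (0.78) and Mrc1 with Pf4 (0.71) were the highest pairs. The 9 pairs with Clec10a had a median of 0.13, the 36 pairs without it 0.33, and the 9 pairs with Ms4a7 had a median of -0.068. By age, the pairs with Clec10a had medians of 0.38 at 7 months and -0.0037 at 10 months, each over 10 mice.

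The genes whose deviations were most like those of Clec10a over the 20 mice were Prkch (r = 0.84), Gm5820 (0.83), Ppp1r3fos (0.79), Rdm1 (0.78) and Cdk14 (0.78), none of them on a border macrophage list used here. Those most like the mean of the other 9 marker genes were Colec12 (0.79), a scavenger receptor of the list above, Clgn (0.78), Tmem221 (0.78), Zbtb46 (0.77) and Rnf150 (0.76). Clec10a itself correlated with that mean at 0.29. These are the highest values among the 14457 genes tested and are given as a description.

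The promoters of the 4 genes that were lower at 10 months are shown because all of them hold the letters GAGGAAG, which occur in sites of PU.1, the transcription factor of macrophages and microglia. The RefSeq table (GRCm38.p6) holds promoters of 7 of the 10 genes, in 9 entries, and none for Clec10a, Lyve1 and Siglec1. The 250 bases upstream of each start were searched on both strands for GAGGAAG and for TGCTGA, a site of MAF factors. These letters were chosen after the sequences and the calls were known, so their presence in all 4 genes is no test of a link to the calls. Capitals mark GAGGAAG, or CTTCCTC where it lies on the other strand. Each sequence is written in the direction of its gene, for Mrc1 chr2:14229164-14229413 (plus strand), for Pf4 chr5:90772185-90772434 (plus), for F13a1 chr13:37050245-37050494 (minus, the start farther upstream) and for Cbr2 chr11:120732022-120732271 (minus).

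Mrc1 promoter: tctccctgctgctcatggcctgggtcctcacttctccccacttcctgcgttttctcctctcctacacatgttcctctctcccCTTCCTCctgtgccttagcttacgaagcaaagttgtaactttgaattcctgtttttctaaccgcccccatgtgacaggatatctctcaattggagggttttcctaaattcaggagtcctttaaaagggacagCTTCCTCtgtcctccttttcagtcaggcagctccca

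Pf4 promoter: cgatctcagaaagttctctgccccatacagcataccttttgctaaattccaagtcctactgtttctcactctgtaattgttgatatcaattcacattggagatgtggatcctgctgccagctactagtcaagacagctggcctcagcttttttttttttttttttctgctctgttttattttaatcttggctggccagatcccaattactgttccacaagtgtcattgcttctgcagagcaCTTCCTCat

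F13a1 promoter: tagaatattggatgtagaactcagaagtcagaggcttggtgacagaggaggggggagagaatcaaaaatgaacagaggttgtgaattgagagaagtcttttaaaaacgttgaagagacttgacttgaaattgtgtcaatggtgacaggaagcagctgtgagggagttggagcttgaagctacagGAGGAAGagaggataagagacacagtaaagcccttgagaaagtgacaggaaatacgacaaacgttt

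Cbr2 promoter: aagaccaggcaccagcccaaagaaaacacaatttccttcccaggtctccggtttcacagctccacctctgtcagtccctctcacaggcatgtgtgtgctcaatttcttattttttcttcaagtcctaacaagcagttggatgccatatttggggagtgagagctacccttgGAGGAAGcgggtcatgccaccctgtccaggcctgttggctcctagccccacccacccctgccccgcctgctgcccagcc

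Mrc1 holds the letters at 2 places and the others at 1. They occur in 10.61% of the 32851 promoters of the table at this length. They are not in the windows of Cd163, Ms4a7 and Stab1, nor in that of the other F13a1 start. TGCTGA was found in 1 of the 9 entries, that of Stab1, against 16.08% of all promoters, and overlaps no GAGGAAG. A match of letters is a description and shows no binding.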

How the data were processed

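RNA of 20 mice was analysed, and groups were taken from the titles in the sample labels. The authors trimmed reads with Trim Galore 0.6.7, mapped them to mm10 with HISAT2 2.2.1 and counted them per gene with featureCounts. Annotation release, strand setting and handling of multimapped reads are not given in the sources used here. The deposited values (unit signal) are counts per gene after division, by the authors, by size factors from DESeq2 1.44.0. Each value of a mouse was a whole multiple of 1 step within a tolerance of 0.01, except that in mThy1-α-synuclein mouse 5 of 10 months the step was too close to 1 to tell. The steps equalled 1 divided by the size factors computed within each age, so whole reads were recovered, for all 24062 genes. The 20 single-mouse files repeat the table's values. Chi-square between mice of a group was at least 24.7 per gene, far above counting noise, so errors are those between mice. Nothing in the labels ties mice to litters.

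Genotypes were compared with limma 3.58.1 (mean-variance trend, robust) on log2(value + 1) for genes reaching 10 normalized counts in 4 or more mice at 7 months and 5 or more at 10 months, and fold changes are on that scale. p-values were adjusted over all genes tested by the Benjamini-Hochberg method, and a gene is called at an adjusted p under 0.05. The difference between ages came from 1 fit of 4 groups. Age contrasts used recovered reads over size factors of all 20 mice. edgeR 4.0.16 and DESeq2 1.42.0 ran on recovered reads as alternatives, in R 4.3.3. The limma and edgeR fits of the genotypes at each age were checked on simulated data, and the other fits were not. Other alternatives were other pseudocounts and filters, voom weights, a replicate block and leaving out single mice. Covariates for neutrophil and choroid plexus transcripts, and the fit without 4 mice low in neutrophil transcripts, were chosen after seeing the data.

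The marker genes and lists were chosen with earlier results of these data known. Genes were named by a rule: all marker genes, up to 10 called genes of the other border macrophage list, up to 3 called genes and the most abundant gene of each other list, and the 5 genes most like Clec10a and most like the mean of the other 9. Siglech, Itgam, Cx3cr1 and Sall1 are all named as the called microglia genes, beyond that limit, and 1 gene that the rule names is not reported here. Positions and lengths are from GENCODE (GRCm38, that is mm10), which matched 94.55% of the symbols, and promoters from RefSeq. The figures were drawn with matplotlib 3.10.9.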

Additional observations from a re-analysis of the deposited data

Results flagged for a closer look

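For Clec10a the genotype effect differed between the ages, by -1.22 on the log2 scale (limma adjusted p = 0.0273), with a log2 fold change of 0.71 at 7 months and -0.51 at 10 months. Among 40 groups of a marker gene looked at for a mouse that stands apart, 2 held one, where chance gives about 1 in 20. Wild-type mouse 3 of 10 months had 990.5 normalized counts of Pf4, with the next highest of its group at 805. Wild-type mouse 3 of 7 months had 914 of Siglec1, with the next highest at 612.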

How the results depend on the processing

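The marker genes called at 10 months were the same 4 with edgeR, voom weights, pseudocounts of 0.5 and 5 and a filter at 50, 5 with DESeq2 (Clec10a added), 3 without a filter (Pf4 lost) and 1 to 4 with single mice left out. Of all genes, 1695 were called with DESeq2 and 860 without a filter, against 1045 in the main fit. With single mice left out 497 to 1235 of all genes were called. With neutrophil or choroid plexus transcripts as a covariate, chosen after seeing the data, 0 were called, and the cause was not tested. At 7 months 1, Clec10a, was called with DESeq2, with the choroid plexus covariate (both 1 in place of 0) and without mThy1-α-synuclein mouse 5, and the count with single mice left out was 0 to 1. Of all genes these fits called 1158, 683 and 697, against 684 in the main fit, and 280 to 860 with single mice left out. For the difference between ages the count was 2 with DESeq2 (F13a1 added), 0 without the 4 mice low in neutrophil transcripts and 0 to 2 without single mice, with Pf4 added without mThy1-α-synuclein mouse 2 of 10 months. Of all genes, 1330 were called with DESeq2, 437 without the 4 mice and 618 to 1097 without single mice, against 920 in the main fit. Between ages the count was 0 to 1 without single mice in each genotype (F13a1 without wild-type mouse 1 of 7 months or 4 or 5 of 10 months, and Stab1 and Clec10a without mThy1-α-synuclein mouse 1 and 5 of 7 months), and 1 on the values as deposited in mThy1-α-synuclein mice. Without single mice 951 to 1290 of all genes were called in wild-type mice and 27 to 164 in mThy1-α-synuclein mice. The main fits called 1441 and 131, and the values as deposited gave 830 in mThy1-α-synuclein mice. The causes were not tested.

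Equal replicate numbers do not pair the mice: same-numbered mice correlated between -0.13 and 0.10 in their deviations. A replicate block gave 1 call at 7 months (Clec10a, 0.93), 3 at 10 months (Cbr2 lost) and 1 for the difference between ages, and Mrc1 at 7 months became 0.027. With the block 414, 916 and 482 of all genes were called in these comparisons.

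Signs turned only for values that were not called. Cd163 at 7 months was -0.0011 with voom weights, -0.064 with the neutrophil covariate, -0.22 without the 4 mice and between -0.13 and 0.11 without single mice. At that age Lyve1 was -0.14 and Pf4 -0.10 without the 4 mice. Without single mice Lyve1 lay between -0.059 and 0.15, Pf4 between -0.040 and 0.14, F13a1 between -0.18 and 0.026 and Siglec1 between -0.20 and 0.025. Siglec1 at 10 months was 0.16 with the choroid plexus covariate, and its difference between ages was 0.0069 with voom weights, 0.24 with that covariate, 0.23 without the 4 mice and between -0.18 and 0.084 without single mice. All other marker values of the genotype comparisons and of their difference between ages kept their sign under the alternatives run. For the contrasts between ages, alternatives were run for the counts alone.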

Other observations

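A few other border macrophage genes were called between the ages. The genes named here were chosen after their values were seen. In wild-type mice 4 of 23 were called (background 9.97%): Cp, Lilra5 and Ms4a6c were higher at 10 months, by log2 fold changes of 0.67, 0.62 and 0.53 (adjusted p = 0.00368, 0.0376 and 0.0134), and the iron exporter gene Slc40a1 fell by 0.48 (adjusted p = 0.00265). In mThy1-α-synuclein mice 1 of 23 was called (background 0.906%), the lectin gene Cd209f, which fell by 1.00 (adjusted p = 0.0177). Age and processing cannot be told apart in these contrasts.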
